A study of Mus musculus with 12 samples.

Results

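The spots examined here measure the genes of glycolysis, the citrate cycle and the mitochondrial respiratory chain in 2 mouse bone cell lines. They were chosen by gene symbol alone: the prefixes of the complex I to V subunits and of the aldolase, phosphofructokinase, phosphoglycerate kinase, lactate dehydrogenase, isocitrate dehydrogenase and hexokinase families, and a short list of single enzymes that included the AMP deaminase Ampd3. The rule found 40 spots for 38 genes among the 4633 spots that carry 1 gene symbol, to which the rule applies. Spots with several symbols (5) or none stayed in every fit across the array. Glycolysis holds 17 spots for 15 genes, the respiratory chain 17 spots for 17 genes, the citrate cycle 5, and Ampd3 1. The chain is represented unevenly, with 1 complex I subunit, 11 spots of complex IV and 5 of complex V, and no member belongs to complex II or III.

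Total RNA was measured on 12 arrays with a single colour, in 4 groups of 3. Osteoblasts were represented by 2T3, a line from a transgenic mouse in which the BMP-2 promoter drives the SV-40 T antigen, and it was sampled as C0 and at low density. Osteocytes were represented by MLO-Y4, a line in which the osteocalcin promoter drives T antigen, and it was sampled at low and high density. All 4 groups therefore carry T antigen, and each cell type is represented by a single line. C0 is taken as confluent, and high as the group with gap junctions, only because the other group of each line is called low. The labels number the arrays 1 to 3 within a group without saying that they are separate cultures, and every p-value therefore reflects array-to-array spread that may be technical.

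Glycolysis breaks glucose down to pyruvate in the cytosol, and lactate dehydrogenase turns pyruvate into lactate. Pyruvate that enters the mitochondrion feeds the citrate cycle, whose electrons pass along complexes I to IV, and complex V uses the resulting proton gradient to make ATP. Osteoblasts are known to use aerobic glycolysis heavily, and osteocytes lie in mineralised matrix, where oxygen supply is limited.

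Spot brightness differed widely between arrays. Mean deposited intensity ran from 42.2 to 334, and between 37.9% and 74.8% of spots lay above the detection limit, taken as the size of the lowest value on that array. Both MLO-Y4 arrays numbered 1 stood apart on the first principal component, at -71.7 and -78.3, and 29 of the 40 members were above the limit on each of them, against 33 to 37 on the other arrays. The array 2T3 C0 replicate 1 lay among the other MLO-Y4 arrays on that component, at -14.7, and apart from all arrays on the second, at -74.8. Without it 3 members were called higher and 3 lower between the lines, against 3 and 2 with it. Intensities were brought to a common distribution by quantile normalization and floored at 6.08, and levels are such normalized intensities, which have no unit. A level is the geometric mean over arrays, a difference is on the log2 scale with its standard error (SE), and a spot was called when limma's p, adjusted over all spots on the array, was below 0.05. Of the osteocyte markers, 5 of 6 measured were called higher in MLO-Y4, and their summed intensity was 5735 to 8283 there against 706 to 1643 in 2T3. Of 7 osteoblast markers, 1 was called lower in MLO-Y4 and the sums overlapped, from 696 to 3096 in MLO-Y4 and from 1900 to 3644 in 2T3. Of the macrophage markers, 1 of 6 was called higher and 1 lower, 1 of 3 adipocyte markers was called lower, and neither of 2 muscle markers was called. These marker lists were chosen with earlier results of these data known, so the counts are not independent evidence of cell identity. The part that other cell types play in the results was not tested, and the effects of array scaling and array number are given beside the results they change. In bulk RNA, fewer cells of a kind and less transcript per cell cannot be told apart.

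The upstream windows of 3 members called higher and 1 called lower in the osteocyte line are shown because glycolytic genes are textbook targets of the hypoxia-inducible factors, whose core motif is ACGTG or GCGTG. Each window is the 250 bases before a RefSeq start site (GRCm38.p6), written 5′ to 3′ on the strand of the gene, with the core motif in capitals on either strand. Gapdh, which oxidises glyceraldehyde 3-phosphate, has its window at chr6:125165774-125166023 on the minus strand, with cores that begin 54 and 44 bases before the start. Aldoa, the aldolase that splits fructose 1,6-bisphosphate, has 3 windows, of which 2 hold the core, and the one at chr7:126799255-126799504 on the minus strand holds it 126 bases before the start. Ampd3, which deaminates AMP to IMP, also has 3 windows, and the one at chr7:110772354-110772603 on the plus strand holds the core on both strands, overlapping in a single palindrome, while the other two Ampd3 windows hold none. Cox8b, a tissue-restricted subunit of complex IV, has its window at chr7:140900447-140900696 on the minus strand, with a core 111 bases before the start.
Gapdh: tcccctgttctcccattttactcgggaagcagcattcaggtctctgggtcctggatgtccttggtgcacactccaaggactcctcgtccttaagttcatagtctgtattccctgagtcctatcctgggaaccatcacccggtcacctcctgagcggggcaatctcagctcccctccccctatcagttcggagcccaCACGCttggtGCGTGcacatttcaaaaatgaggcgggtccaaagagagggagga
Aldoa: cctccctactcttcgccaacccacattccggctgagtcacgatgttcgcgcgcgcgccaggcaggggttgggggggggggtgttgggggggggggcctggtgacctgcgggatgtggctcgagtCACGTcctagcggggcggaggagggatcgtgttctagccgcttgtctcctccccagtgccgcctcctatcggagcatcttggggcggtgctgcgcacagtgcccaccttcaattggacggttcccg
Ampd3: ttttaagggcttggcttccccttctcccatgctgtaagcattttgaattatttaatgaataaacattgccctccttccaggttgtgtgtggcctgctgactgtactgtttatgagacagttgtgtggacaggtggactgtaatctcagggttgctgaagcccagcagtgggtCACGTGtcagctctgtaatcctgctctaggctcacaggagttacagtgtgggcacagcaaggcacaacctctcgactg
Cox8b: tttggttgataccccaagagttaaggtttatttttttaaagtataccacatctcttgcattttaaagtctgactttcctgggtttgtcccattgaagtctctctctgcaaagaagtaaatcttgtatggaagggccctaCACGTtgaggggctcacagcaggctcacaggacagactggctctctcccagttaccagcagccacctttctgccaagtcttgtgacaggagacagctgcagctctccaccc

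The core was therefore found on both sides of the comparison. Over all members, 35 of 38 genes matched a window. On either strand, and counting a gene when any of its windows held a match, the core was present in 13 of 15 glycolytic genes (86.7%), 9 of 14 respiratory genes (64.3%) and 5 of 5 citrate cycle genes. The share was 41.5% over 27025 genes. The GC box GGGCGG, read on both strands, was present in 9 of 15 glycolytic genes (60%) and 6 of 14 respiratory genes (42.9%), against 35.4% of all genes. No member window held TATAAA on the strand of the gene, against 8.94% of all genes. The shares were not matched for base composition or for windows per gene, and a gene with more windows has more chances of a match. These matches describe letters in a window and not factor binding, which was not measured.

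Between the osteocyte and the osteoblast line over both densities, 3 of the 40 member spots were called higher in MLO-Y4, where 5.83% of all spots were, and 2 were called lower, where 3.48% were. The member counts lie near these shares. The spots called higher were Ampd3, Aldoa and 1 of the 3 Gapdh spots, and those called lower were the complex V subunit Atp5a1 and the complex IV subunit Cox8b. Both called glycolytic spots were higher in the osteocyte line and both called respiratory spots lower. Array scaling moved these counts: with equal array medians 7 members were called higher and 0 lower, and with arrays scaled on the spots detected on every array 5 were called higher and 3 lower. The calls over all spots moved as well. The shares of 5.83% and 3.48% under quantile normalization stand for 293 spots called higher and 175 called lower. With equal medians these counts were 414 and 94, and with detected-spot scaling 240 and 308. Over all spots, 62.6% of calls were higher in MLO-Y4 under quantile normalization, 81.5% with equal medians and 43.8% with detected-spot scaling.

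Ampd3 had the smallest adjusted p of the members. Its deposited intensity was -3 to 23 on the 6 2T3 arrays and 188 to 963 on the 6 MLO-Y4 arrays, before any scaling. After normalization it read 19.5, 9.17 and 10.4 in 2T3 C0, 6.08 on each 2T3 low array, 904, 715 and 309 in MLO-Y4 low, and 875, 706 and 336 in MLO-Y4 high. The 2 lines did not overlap, and Ampd3 was above the detection limit on 3 of 6 2T3 arrays, all of them C0, and on 6 of 6 MLO-Y4 arrays. The difference was 6.09 (SE 0.36, n = 6 arrays a line, limma adjusted p = 5.49e-06), from a level of 8.65 to one of 588. At matched low density, where all 2T3 arrays were below the limit, MLO-Y4 exceeded 2T3 in Ampd3 by at least 49.1-fold (limma adjusted p = 1.22e-04). In the denser groups it was 48.1-fold higher (difference 5.59, SE 0.51, limma adjusted p = 2.44e-04). Ampd3 was called in each of the 12 fits that left out 1 array.

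**Figure D1:**
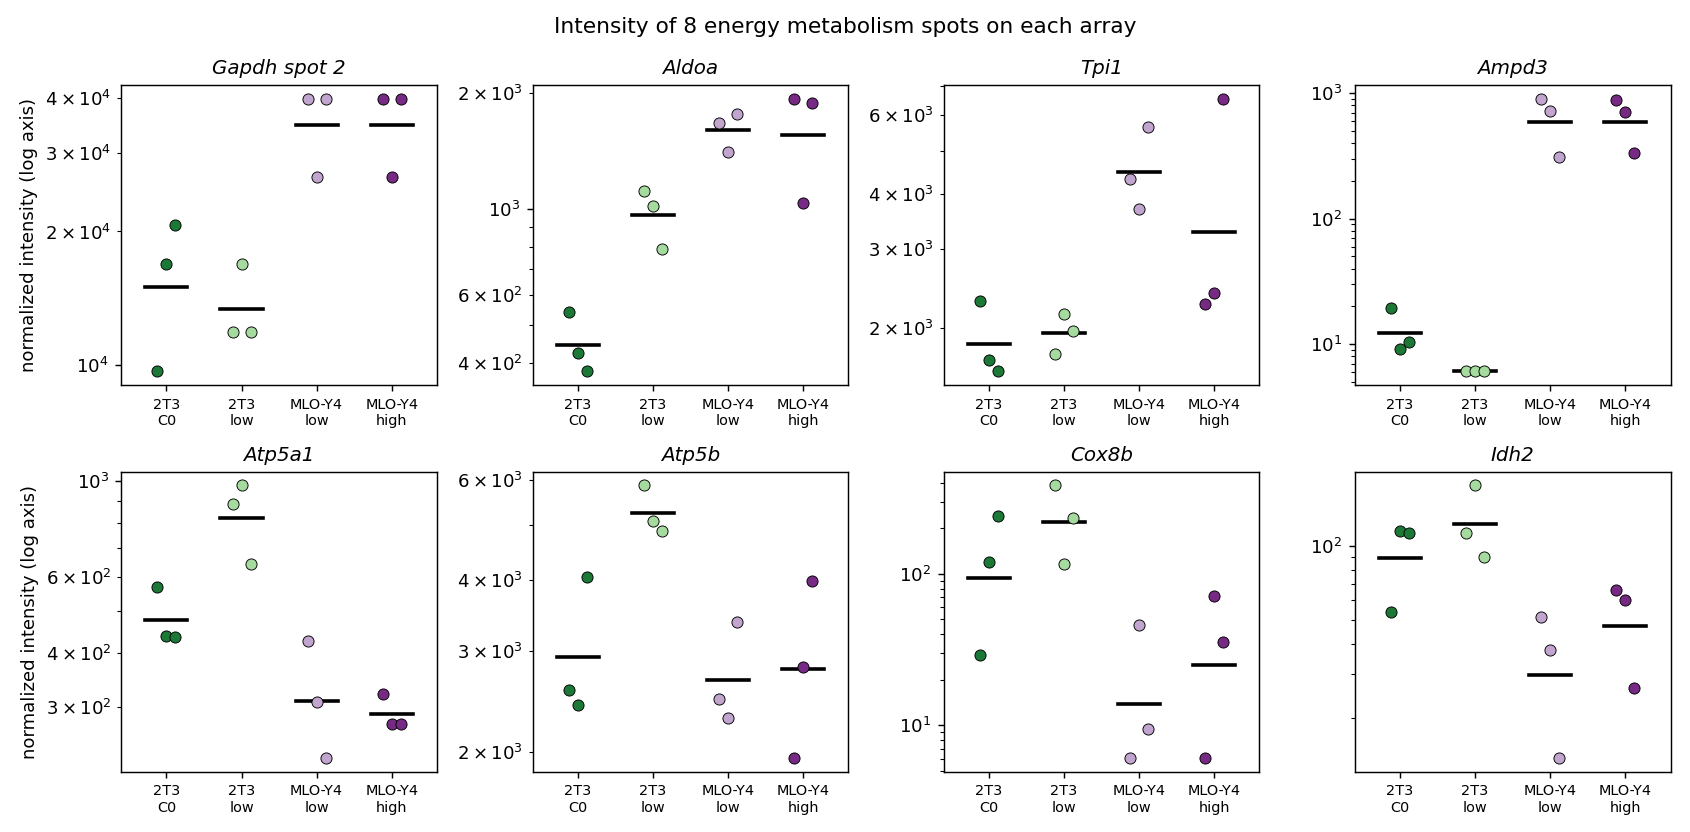
Normalized intensity of 8 member spots on each of the 12 arrays, on log axes that differ between panels; each point is 1 array and each bar the geometric mean of 3 arrays. Ampd3 lies at 6.08 to 19.5 on the 2T3 arrays and at 309 to 904 on the MLO-Y4 arrays, whereas the lines overlap for Aldoa, Tpi1, Atp5b, Cox8b and Idh2.

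Among the glycolytic enzymes, the 9 spots from aldolase to pyruvate kinase all had differences above 0 under quantile normalization, and under both other scalings. Aldoa read 543, 425 and 380 in 2T3 C0, 1115, 1019 and 791 in 2T3 low, 1676, 1408 and 1764 in MLO-Y4 low, and 1939, 1042 and 1884 in MLO-Y4 high. The C0 arrays were the lowest of the 4 groups, and the lines overlapped only between 2T3 low replicates 1 and MLO-Y4 high replicate 2. Over both densities Aldoa was 2.42-fold higher in MLO-Y4 (difference 1.28, SE 0.23, n = 6 arrays a line, limma adjusted p = 0.00699). The difference was 1.81 in the denser groups (SE 0.33, limma adjusted p = 0.0141) and 0.74 at low density (SE 0.33, limma adjusted p = 0.323), and the gap between these (1.08, limma adjusted p = 1.00) was not called. The call in the denser groups was lost in 3 of the 12 fits without 1 array, those without 2T3 C0 replicate 2, 2T3 C0 replicate 3 or MLO-Y4 high replicate 3, and without all arrays numbered 1 (limma adjusted p = 0.0802).

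Gapdh was measured by 3 spots that share a transcript record. Their deposited intensities ran from 2610 to 27226 on the 2T3 arrays and from 9822 to 50282 on the MLO-Y4 arrays. All 2T3 values below 8959 came from 2T3 low replicate 3, the array with the lowest mean intensity (42.2). A Gapdh spot was the brightest of all spots on 5 of 6 MLO-Y4 arrays and on 0 of 6 2T3 arrays. Because quantile normalization sets a value by its rank, a spot this bright takes 1 of a few fixed values, and Gapdh differences cannot exceed the steps between these. Spot 2 read 9683, 16874 and 20655 in 2T3 C0, 11905, 16874 and 11905 in 2T3 low, and 39841, 26520 and 39841 in each MLO-Y4 group. It did not overlap between the lines and was called (difference 1.30, SE 0.26, n = 6 arrays a line, limma adjusted p = 0.0115). Spots 1 and 3 overlapped and were not called, at 0.74 (SE 0.27, limma adjusted p = 0.136) and 0.78 (SE 0.32, limma adjusted p = 0.194). The mean over the 3 spots was 0.94 under quantile normalization, 2.35 with equal medians and 1.49 with detected-spot scaling, and all 3 spots were called under both alternatives. Without the arrays numbered 1 the limma adjusted p of spot 2 was 0.0612.

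Tpi1, which interconverts the triose phosphates, had a difference of 1.02 (SE 0.30, limma adjusted p = 0.0635), with 1596 to 2291 in 2T3 and 2267 to 6543 in MLO-Y4. Eno3, the enolase of muscle, had 0.92 (SE 0.34, limma adjusted p = 0.140). Neither was called, nor with detected-spot scaling (limma adjusted p = 0.104 and 0.160). Both were called with equal medians (limma adjusted p = 0.0204 and 0.0306), where spots detected on every array had a median difference of 0.79. Pgk1, Eno2 and Pkm, which act in later steps of the pathway, lay at 0.54, 0.57 and 0.15, with 95% intervals that included 0.

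The enzymes at the entry and the exit of glycolysis gave no call. Hexokinase phosphorylates glucose, and Hk1 had a level of 69.3 in 2T3 and 70.7 in MLO-Y4, a difference of 0.03 with a 95% interval of -1.03 to 1.09. Hk2 lay at 0.65 (SE 0.55). Of the phosphofructokinases, which commit sugar to the pathway, Pfkl lay at -0.63 (SE 0.36) and Pfkp at 0.04 (SE 0.77), and Pfkfb2, which sets the level of their activator, lay at 0.15 (SE 0.55). The lactate dehydrogenase spots were dim: Ldha was above the detection limit on 4 of 12 arrays and Ldhb and Ldhc on 0. Their differences, 0.10, 0.40 and 0.09, are not interpreted.

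**Figure D2:**
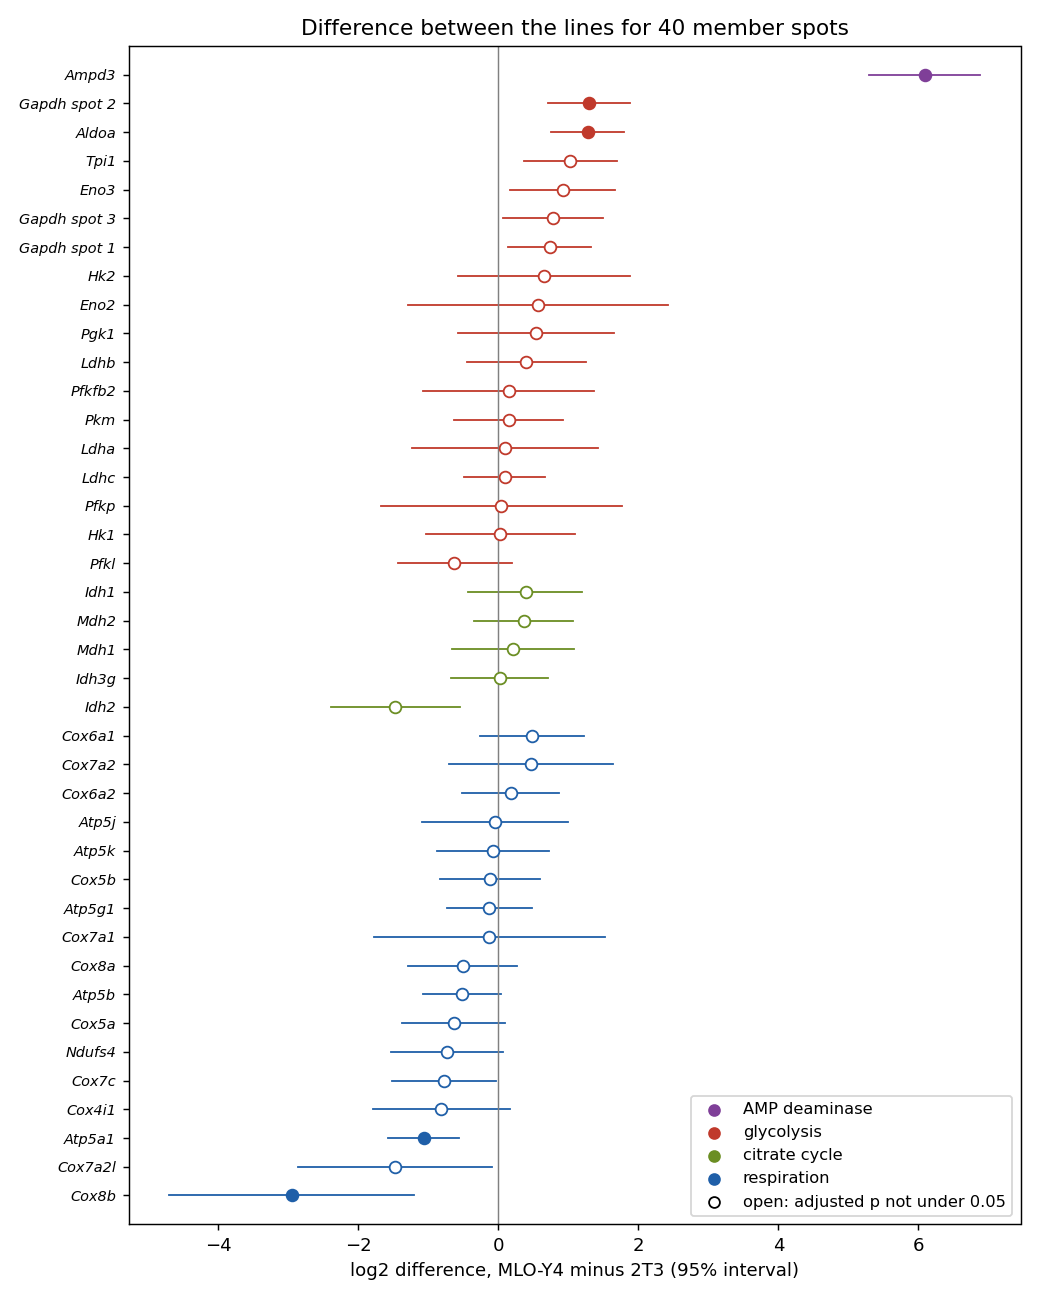
Log2 difference between the lines, MLO-Y4 minus 2T3 over both densities, for the 40 member spots with 95% intervals; filled points have an adjusted p under 0.05. Under this quantile normalization the glycolytic spots lie above 0 except Pfkl at -0.63 and the respiratory spots below 0 except Cox6a1, Cox7a2 and Cox6a2, whereas with equal medians 13 of 17 respiratory spots lie above 0.

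In the respiratory chain, Atp5a1 encodes the alpha subunit of the catalytic part of ATP synthase. It read 568, 439 and 436 in 2T3 C0, 886, 977 and 643 in 2T3 low, 427, 309 and 229 in MLO-Y4 low, and 322, 274 and 274 in MLO-Y4 high. Every MLO-Y4 array lay below every 2T3 array. Atp5a1 was 2.09-fold lower in MLO-Y4 (difference -1.06, SE 0.23, n = 6 arrays a line, limma adjusted p = 0.0150) and was called in 12 of 12 fits without 1 array. This call depended on the scaling: with equal medians the difference was -0.20 (limma adjusted p = 0.842), where the spots detected on every array had a median difference of 0.79, against 0.04 under quantile normalization. With detected-spot scaling it was -1.05 (limma adjusted p = 0.0237), and among only the spots above the limit on at least 3 arrays the limma adjusted p was 0.0706. At low density the difference was -1.40 (limma adjusted p = 0.0385), a call lost in 9 of the 12 fits without 1 array. In the denser groups it was -0.72 (limma adjusted p = 0.344).

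The other 4 complex V spots were not called. Atp5b, the beta subunit that carries the catalytic sites, read 2419 to 5861 in 2T3 and 1949 to 3989 in MLO-Y4, a difference of -0.52 (SE 0.25, limma adjusted p = 0.274). Atp5g1, which belongs to the membrane ring, Atp5k and Atp5j lay between -0.13 and -0.05. Over both densities all 5 complex V differences were thus below 0, and with equal medians 4 of 5 were above 0. At low density, under quantile normalization, all 5 were below 0, with a median of -0.48. In the denser groups 3 of 5 were above 0, with a median of 0.14.

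Cox8b, the heart and muscle form of a small complex IV subunit, was the respiratory spot with the largest difference. It read 29.3, 119 and 240 in 2T3 C0, 384, 116 and 235 in 2T3 low, 6.08, 46.3 and 9.5 in MLO-Y4 low, and 6.08, 71.2 and 35.5 in MLO-Y4 high. It was above the detection limit on 6 of 6 2T3 arrays and 3 of 6 MLO-Y4 arrays, and the lines overlapped. The difference was -2.95 (SE 0.78, n = 6 arrays a line, limma adjusted p = 0.0422), from a level of 144 to one of 18.6. The call was lost in 9 of the 12 fits without 1 array, the exceptions being those without 2T3 C0 replicate 1, MLO-Y4 low replicate 2 or MLO-Y4 high replicate 2. Its form outside muscle, Cox8a, is among the bright members, with 3098 to 7752 in 2T3 and 1744 to 7079 in MLO-Y4, and was not called (difference -0.51, SE 0.35, limma adjusted p = 0.479).

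The other complex IV spots split around 0. Cox7a2l, which helps join complexes into supercomplexes, lay at -1.48 (SE 0.62, limma adjusted p = 0.204) and was above the limit on 6 of 6 2T3 arrays and 2 of 6 MLO-Y4 arrays. Without MLO-Y4 low replicate 3, which read 63.9 where the other MLO-Y4 arrays read at most 12.2, its difference was -2.04 and was called (limma adjusted p = 0.0179). Cox4i1, Cox7c and Cox5a lay at -0.82, -0.77 and -0.64, Cox5b at -0.12 and Cox7a1 at -0.13, whereas Cox6a1, Cox7a2 and Cox6a2 lay between 0.18 and 0.48, and none was called. Cox6a2 was above the limit on 1 of 12 arrays. Ndufs4, an accessory subunit of complex I, lay at -0.73 (SE 0.36, limma adjusted p = 0.288).

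Among the citrate cycle enzymes, Idh2, the mitochondrial isocitrate dehydrogenase that makes NADPH, read 53.6 to 176 in 2T3 with a median of 113, and 13.7 to 66.1 in MLO-Y4 with a median of 43.9. The difference was -1.47 (SE 0.41, n = 6 arrays a line) and missed the threshold (limma adjusted p = 0.0531). It passed with the replicate block (0.0358) and with detected-spot scaling (difference -1.99, limma adjusted p = 0.00793), and not with equal medians (difference -1.14, limma adjusted p = 0.141). Idh3g, a subunit of the NAD-dependent enzyme of the cycle, lay at 0.02. The malate dehydrogenases Mdh1 and Mdh2 lay at 0.21 and 0.36, and Idh1, the cytosolic NADP-dependent enzyme, lay at 0.39 but was above the limit on 3 of 12 arrays. Idh2 was the only citrate cycle spot with a difference below 0 under quantile normalization and with equal medians, whereas 3 of the 5 lay below 0 with detected-spot scaling.

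Set side by side, 16 of the 17 glycolytic spots had differences above 0, with a median of 0.54, and 3 of the 17 respiratory spots did, with a median of -0.51. Over all spots 2413 differences were above 0 and 2616 below it, with a median of -0.03. Among spots above the limit on all 12 arrays, 10 of 10 glycolytic and 2 of 13 respiratory differences were above 0. Their medians were 0.76 and -0.13, beside 0.04 for all such spots. The respiratory median was thus smaller in size without the dimmer spots. The 17 glycolytic spots include the 3 of lactate dehydrogenase, whose differences are not interpreted. The sides kept their order but not their signs under the other scalings. With equal medians 16 of 17 glycolytic and 13 of 17 respiratory differences were above 0, with medians of 1.12 and 0.34, beside 0.11 for all spots and 0.79 for spots detected on every array. With detected-spot scaling 11 of 17 and 2 of 17 were above 0, with medians of 0.34 and -0.47, beside -0.41 for all spots and -0.07 for the detected ones. The sign of the respiratory median thus depended on the scaling, and the order of the 2 medians was the same under all 3. Without the 3 Gapdh spots, 13 of 14 glycolytic differences were above 0, with a median of 0.27.

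**Figure D3:**
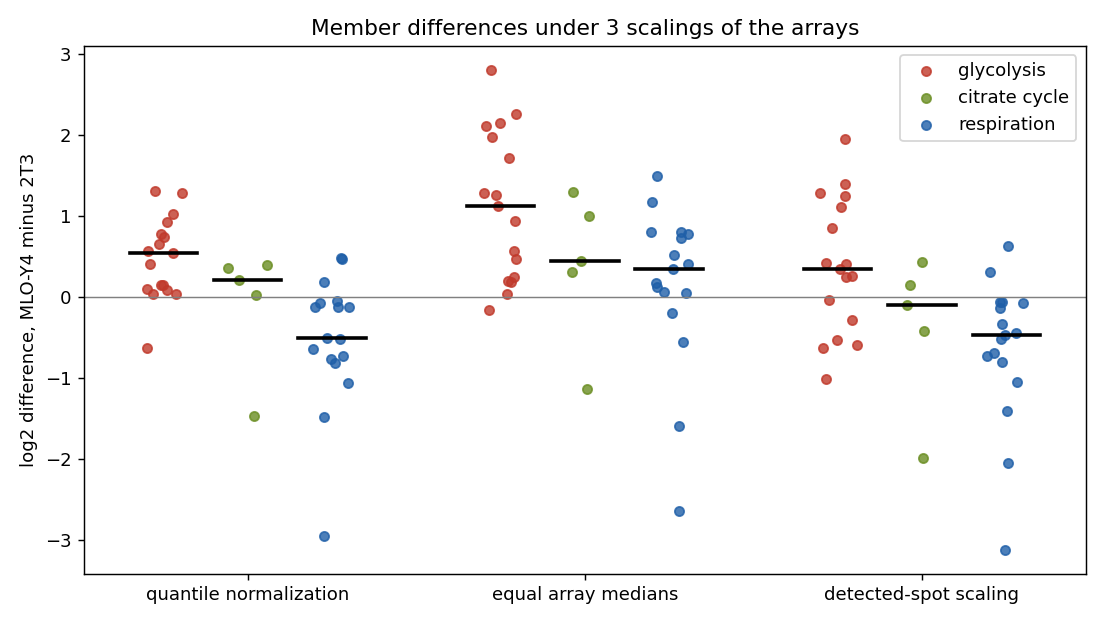
Log2 difference between the lines for the glycolytic, citrate cycle and respiratory spots under 3 scalings of the arrays; each point is 1 spot and each bar the median. The glycolytic median lies above the respiratory one under each, at 0.54 and -0.51, 1.12 and 0.34, and 0.34 and -0.47.

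Above the floor, a factor that multiplies a whole array cancels when glycolysis is set against respiration within that array. It does not cancel for spots at the floor, and quantile normalization is not a single factor. For each array the mean log2 deviation of the 15 glycolytic genes from their own 12-array means was taken, and the same for the 17 respiratory genes was subtracted. In 2T3 C0 the result was -0.08, -0.06 and -0.87, and in 2T3 low -0.45, -0.84 and -0.51. In MLO-Y4 low it was 0.50, 0.64 and 0.40, and in MLO-Y4 high 0.72, 0.44 and 0.11. Every 2T3 array lay below 0 and every MLO-Y4 array above it, with the smallest gap between 2T3 C0 replicate 2 and MLO-Y4 high replicate 3. The group means were -0.34 ± 0.46 (SD, n = 3) in 2T3 C0, -0.60 ± 0.21 in 2T3 low, 0.51 ± 0.12 in MLO-Y4 low and 0.42 ± 0.31 in MLO-Y4 high. The line difference of 0.94 was larger than the pooled spread within groups (SD 0.30), and it was given no p because it sums over a chosen list. It was 0.82 with equal medians, 0.88 with detected-spot scaling, 0.90 without Gapdh and 0.99 over genes above the limit on all 12 arrays. Over those genes the group means were -0.50 in 2T3 C0, -0.49 in 2T3 low, 0.62 in MLO-Y4 low and 0.36 in MLO-Y4 high. The gap between C0 and low in 2T3 thus went from 0.26 to 0.00 without the dimmer genes. That between high and low in MLO-Y4 went from -0.09 to -0.26.

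**Figure D4:**
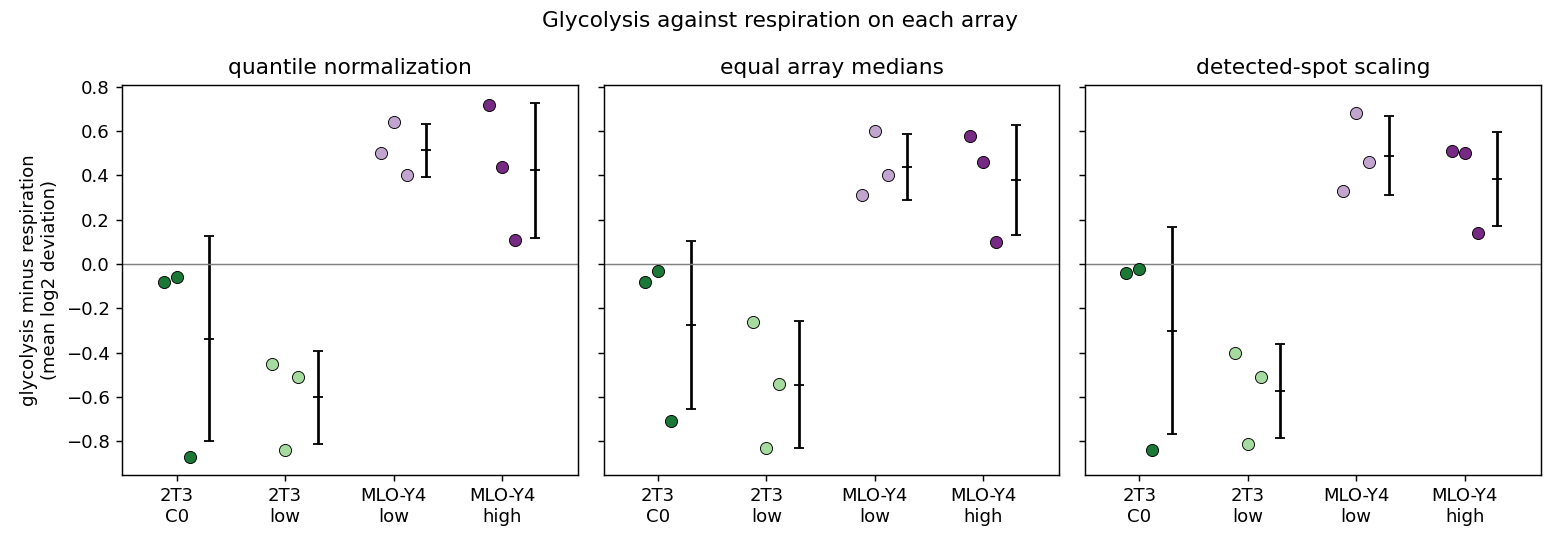
Mean log2 deviation of glycolytic genes minus that of respiratory genes on each array, under 3 scalings; points are arrays and the bars to their right give the mean and SD of 3 arrays. Under quantile normalization the 2T3 arrays run from -0.87 to -0.06 and the MLO-Y4 arrays from 0.11 to 0.72.

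Between densities no member was called. In 2T3, C0 against low called 0 spots on the whole array (0%), with limma p below 0.05 unadjusted for 266 spots, where 251.5 are expected by chance, and for 4 members. In MLO-Y4, high against low also called 0 spots (0%), with 116 spots and 1 member below 0.05 unadjusted. That test did not pair arrays by number, although MLO-Y4 arrays of the same number were correlated in their deviations (0.475 to 0.625). The test of whether the 2 density effects differ called 0 spots (0%), with 145 spots and 2 members below 0.05 unadjusted, and the smallest member adjusted p was 1.00.

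In 2T3 the C0 and low arrays did not overlap for 6 of the 40 members, where 9.05% of all spots did not, and 4 of the 6 had an unadjusted p below 0.05. Aldoa read 380 to 543 in C0 and 791 to 1115 in low (difference -1.12, SE 0.33, limma adjusted p = 0.929). Atp5a1 and Atp5b had differences of the same sign, -0.78 (SE 0.32) and -0.84 (SE 0.35). Mdh2, the mitochondrial malate dehydrogenase, read 1764, 809 and 983 in C0 and 649, 759 and 354 in low (difference 1.00, SE 0.45, adjusted p = 0.929). All 5 complex V spots had differences below 0, with a median of -0.64 where the median of all spots was 0.00, and 4 of the 17 respiratory and 7 of the 17 glycolytic spots had differences above 0. Ampd3, at 1.02 (SE 0.51), was above the detection limit on the C0 arrays only.

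In MLO-Y4 the complex V differences lay between -0.11 and 0.21 and Aldoa at -0.04 (SE 0.33). Pfkl, the liver form of phosphofructokinase, was the member with an unadjusted p below 0.05, with 99.1, 73.2 and 67.6 at low and 19.2, 35.5 and 49.6 at high density (difference -1.29, SE 0.52, limma adjusted p = 1.00). The density effects of the 2 lines differed by 1.08 (SE 0.47, limma adjusted p = 1.00) for Aldoa and by -1.45 (SE 0.63, limma adjusted p = 1.00) for Mdh2. For Atp5b the difference of the effects was 0.91 (SE 0.50, limma adjusted p = 1.00). None of these passed the threshold, which does not show that density left the genes alike.

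**Figure D5:**
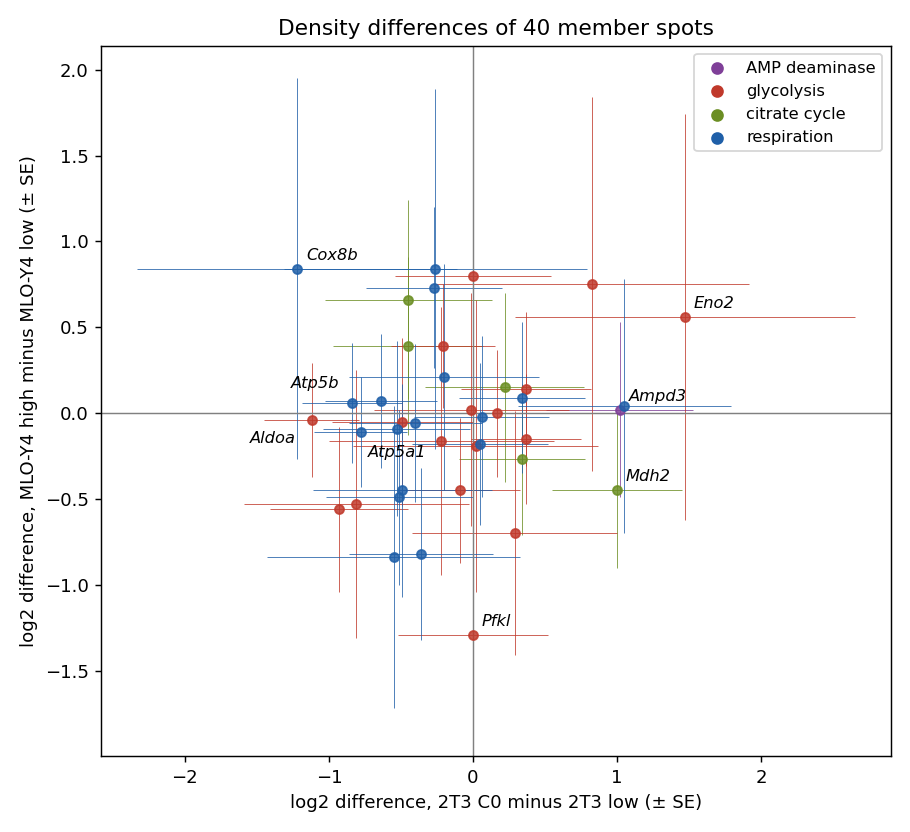
Log2 density difference of each member spot in 2T3 (C0 minus low, horizontal) and in MLO-Y4 (high minus low, vertical), with bars of 1 SE. Aldoa, Atp5a1 and Atp5b lie left of 0 in 2T3 and within 0.11 of 0 in MLO-Y4, and no spot was called on either axis.

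Taken at a single density, fewer members were called between the lines. At low density 1 member was higher in MLO-Y4 (Ampd3), where 2.86% of all spots were, and 1 was lower (Atp5a1), where 1.07% were. In the denser groups 2 members were higher (Ampd3 and Aldoa), where 2.31% of all spots were, and 0 of 40 were lower by limma, where 1.05% were, with 6 members in either direction below an unadjusted p of 0.05, where 14.2% of all spots were. At low density 11 members were below it, where 15.4% of all spots were. Both comparisons share their arrays with the comparison over both densities. Glycolysis minus respiration was higher in MLO-Y4 than in 2T3 by 1.11 at low density and by 0.76 in the denser groups, and the second value was 0.49 without 2T3 C0 replicate 3. The respiratory differences had a median of -0.60 at low density, with 3 of 17 above 0. In the denser groups their median was -0.07, with 7 of 17 above 0. The glycolytic medians were 0.62 and 0.39. The respiratory genes' mean deviation was 0.42 in 2T3 low and 0.10 in 2T3 C0, against -0.26 in MLO-Y4 low and -0.27 in MLO-Y4 high.

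The genes around these pathways were taken from lists of carbon and energy metabolism. Between the lines limma called 0 spots, with 6 of 36 below an unadjusted p of 0.05, among 5 for glucose and lactate transport, 4 for pyruvate dehydrogenase and its kinases, 5 for other citrate cycle enzymes, 4 for the pentose phosphate and glycogen pathways, 10 for electron carriers, assembly factors and inner membrane proteins, and 8 for mitochondrial regulators. With equal medians 2 of these 36 were called higher, Got1 (limma adjusted p = 0.0487) and Ppargc1a (0.0379), and with detected-spot scaling 2 were called lower, Pdk4 (0.00656) and Pygm (0.0139). Of all spots 5.83% were called higher in MLO-Y4 and 3.48% lower, and 21.1% had an unadjusted limma p below 0.05. The list counts are to be read against these shares. Of 10 spots for adenine nucleotide enzymes, 1 was called higher in MLO-Y4, and none lower. This was Nt5e, the surface enzyme that turns AMP into adenosine, which like Ampd3 consumes AMP. It was above the limit on 0 of 6 2T3 arrays and 6 of 6 MLO-Y4 arrays and was at least 4.28-fold higher (limma adjusted p = 1.54e-04). Adssl1, an adenylosuccinate synthase, which makes AMP from IMP with the next enzyme of the purine nucleotide cycle, was not called (difference 1.69, SE 0.50, limma adjusted p = 0.0673, and 0.0470 with equal medians).

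Of 7 fatty acid oxidation spots, 2 were called higher and none lower. Acadm, the medium-chain acyl-CoA dehydrogenase, had a level of 15 in 2T3 and 84.4 in MLO-Y4 (difference 2.49, SE 0.39, limma adjusted p = 0.00300), and the short-chain enzyme Acads was at least 1.62-fold higher (limma adjusted p = 0.0350, and 0.226 with detected-spot scaling). Of 3 gluconeogenesis spots, Fbp2, the muscle fructose bisphosphatase, was called higher, with a level of 28.9 in 2T3 and 244 in MLO-Y4 (difference 3.07, SE 0.73, limma adjusted p = 0.0257, and 0.0631 with detected-spot scaling). Of 13 hypoxia response spots, 3 were called higher and none lower. These were Vegfa, which drives vessel growth, at 3.91 (SE 0.39, limma adjusted p = 1.71e-04), the vasodilator peptide gene Adm at 3.11 (SE 0.38, limma adjusted p = 6.83e-04) and Epas1, which encodes a hypoxia-inducible factor, at 2.03 (SE 0.51, limma adjusted p = 0.0327, and 0.0686 with detected-spot scaling). Mxi1, a repressor that competes with Myc, was not called (difference -1.38, SE 0.56, limma adjusted p = 0.189) and was called lower with detected-spot scaling (difference -2.26, limma adjusted p = 0.00576). Between densities limma called 0 of 68 spots of these lists in either line. Below an unadjusted limma p of 0.05 were 7 in 2T3, where 5.29% of all spots were, and 2 in MLO-Y4, where 2.31% were.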

How the data were processed

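The authors deposited an intensity for each spot, on a linear scale and in whole numbers. Some lie below 0, so a background had been subtracted. Image software and background method were not given in the sources used here. Array medians differ, so the deposited intensity carries no visible scaling between arrays. Precision is limited by having 3 arrays a group.

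Symbols from the platform annotation were updated through Entrez identifiers for 4624 and kept for 9. The members, role lists, pathway lists and cell type marker lists were chosen with earlier results of these data known.

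Intensities were quantile-normalized over all spots (limma 3.58.1, R 4.3.3), floored at their 25th percentile (6.08) and taken as log2. Quantile normalization was used because background readings set the medians of some arrays. lmFit estimated 4 group means over 12 arrays (8 residual degrees of freedom), eBayes gave two-sided tests for 6 comparisons, and p was adjusted by Benjamini-Hochberg over all spots in each. The fit was tested on simulated data. Where no array of a group exceeded its detection limit, the fold is a bound: the brighter level divided by those limits, or by the spot's own values where higher.

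Named spots were Gapdh, Aldoa and Ampd3, members called in any comparison, and in each role the genes with the smallest p between the lines and between densities and the brightest gene. The other members are named to account for all of them. Pathway genes named with values are those called between the lines, under quantile normalization, and Adssl1, Mxi1, Got1, Ppargc1a, Pdk4 and Pygm, which were chosen after their values were seen.

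For arrays that share a number, the correlation of deviations from the group means was 0.475 to 0.625 between MLO-Y4 low and high and 0.276 to 0.526 between 2T3 C0 and either MLO-Y4 group. It was 0.0388 to 0.152 between 2T3 C0 and low, and -0.111 to 0.155 between 2T3 low and the MLO-Y4 groups. The number was therefore used as a block only in an alternative fit. The main fit treated all arrays as independent, so the 6 MLO-Y4 arrays may not count as 6 independent units. Where such correlation is ignored, a density test within the line is cautious and the precision of a line difference can be overstated. A fit without 1 array also keeps the arrays that share its number. Other alternatives were equal array medians, detected-spot scaling, a floor at the 40th percentile, an offset of 16, a filter of 3 arrays above the limit, the brightest spot of a gene, fits without each array and fits without all arrays numbered 1.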

Additional observations from a re-analysis of the deposited data

How the results depend on the processing

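The count of members called higher in MLO-Y4 over both densities was 3, and it was 7 with equal medians, 5 with detected-spot scaling and 2 to 4 without an array or a number. The count called lower was 2, and it was 0 with equal medians and 3 with detected-spot scaling. It was 1 with a floor at the 40th percentile and 1 among spots above the limit on at least 3 arrays. Without an array or a number it was 1 to 3. Over all spots, 293 were called higher and 175 lower under quantile normalization. These counts were 414 and 94 with equal medians and 240 and 308 with detected-spot scaling. With an offset of 16, Idh2 was also called lower (limma adjusted p = 0.0354). At low density the count higher was 1, and it was 3 with equal medians, 2 with a floor at the 40th percentile and 1 to 2 without an array or a number. The count lower there was 1, and it was 0 with equal medians, 2 with an offset of 16, 0 with the position trend removed (an alternative chosen after seeing the data) and 0 to 1 without an array or a number. In the denser groups the count higher was 2, and it was 3 with equal medians, where Gapdh spot 2 was added (limma adjusted p = 0.0405). It was 1 among spots above the limit on at least 3 arrays and 1 to 2 without an array or a number. With the replicate block, 3 members were called higher and 3 lower between the lines, the added one being Idh2, and no other member count changed. The density comparisons called 0 members under each alternative run. Glycolysis minus respiration kept its sign under each alternative run and ranged from 0.79 to 1.02 against 0.94. For the named spots, in the comparison over both densities, 16 alternatives lost a call, 13 gained one and 0 reversed one. Without 1 array, Atp5a1 lost its low-density call in 9 of 12 fits and Aldoa its denser-group call in 3 of 12. The cause of these shifts was not tested. With 3 arrays a group, differences near 1 on the log2 scale often miss the threshold, as those of Tpi1 and Eno3 do. Ldhb and Ldhc were above the limit on 0 arrays and Ldha on 4 of 12, so their differences are not interpreted.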

Other observations

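Among the regulators of mitochondrial biogenesis, Ppargc1a, the coactivator that drives it in many tissues, had a difference between the lines of 1.41 (SE 0.39, limma adjusted p = 0.0521), just outside the threshold. It was above the detection limit on 2 of 6 2T3 arrays and 4 of 6 MLO-Y4 arrays. Its level was 11.6 in 2T3 C0, 8.05 in 2T3 low, 14.4 in MLO-Y4 low and 45.5 in MLO-Y4 high. The line difference thus came mainly from MLO-Y4 high, although the density difference in that line (1.66, SE 0.55) was not called. Tfam, which packages and transcribes mitochondrial DNA, lay at -1.40 (SE 0.62, limma adjusted p = 0.230) and the deacetylase Sirt1 at -1.14 (SE 0.44, limma adjusted p = 0.163). Pdk4, a kinase that shuts off pyruvate dehydrogenase, lay at -1.52 (SE 0.51, limma adjusted p = 0.105), and the malate-aspartate shuttle enzyme Got1 at 1.64 (SE 0.55, limma adjusted p = 0.103). These genes were chosen after their values were seen. None was called under quantile normalization, whereas Pdk4 was called with detected-spot scaling (difference -2.51, limma adjusted p = 0.00656) and Ppargc1a and Got1 with equal medians (limma adjusted p = 0.0379 and 0.0487).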
